A study of Mus musculus with 14 samples.

Results

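The 7 mouse Fc receptor genes described here, Fcgr1, Fcgr3, Fcgr4, Fcer1g, Fcgr2b, Fcrls and Fcgrt, were chosen by their symbols in the gene lists of the deposited count matrices, and all 7 were found among 55335 genes. They were followed through 14 single-cell RNA libraries of whole spinal cord from mice aged P115-120. The mice fell into 4 groups. The nTg mice (n = 3) carry the strain label nTg, the Clec7a-KO mice (n = 4) the label B6.129S6-Clec7atm1Gdb/J, a knockout of the lectin receptor gene Clec7a, and the SOD1G93A mice (n = 3) the label B6SJL-Tg(SOD1*G93A)1Gur/J, a mutant human SOD1 transgene that gives a motor neuron disease. The SOD1G93A/Clec7a-KO mice (n = 4) carry both, under the strain label SOD1G93A/Clec7a KO. The labels of the Clec7a-KO and SOD1G93A mice name different backgrounds and the other labels name none, so a part of background in the comparisons cannot be told apart from genotype. The labels do not say whether each library is 1 animal, so p-values measure the spread between these libraries. They give no sex either; Xist was above the Y-linked Ddx3y in 2 of 3 nTg, 1 of 4 Clec7a-KO, 0 of 3 SOD1G93A and 1 of 4 SOD1G93A/Clec7a-KO libraries. All groups shared the same enzymatic dissociation and myelin removal, and the labels name no sorting step.

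Fc receptors bind the constant part of antibodies. In macrophages, Fcgr1, Fcgr3 and Fcgr4 encode IgG receptors that pair with the common gamma chain encoded by Fcer1g; its tyrosine motif recruits the kinase Syk and starts engulfment and cytokine release. Fcgr2b encodes the inhibitory IgG receptor, whose own motif recruits phosphatases such as that of Inpp5d. Fcrls encodes an Fc receptor-like protein known as a microglial signature gene, and Fcgrt encodes the heavy chain of the neonatal Fc receptor, which pairs with beta-2 microglobulin to return IgG and albumin from endosomes, in vessels above all.

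4 of the genes lie close together: Fcgr2b (chr1:170958617-170976547, minus strand), Fcgr4 (chr1:171018920-171029761, plus strand), Fcgr3 (chr1:171051174-171064935, minus strand) and Fcer1g (chr1:171229572-171234365, minus strand) sit within 275.7 kb of chromosome 1. Fcrls (chr3:87250758-87263738) and Fcgr1 (chr3:96282909-96293969) are on the minus strand of chromosome 3, and Fcgrt (chr7:45092990-45103851) on the minus strand of chromosome 7. Coordinates are those of GRCm38 with the GENCODE vM21 annotation, the build that mm10 names. The annotation places Gm38204 on the strand opposite Fcgr2b and Gm45669 opposite Fcgrt; how the counting treated strand is not given in the sources used here. Fcgr2b, Fcgr3 and Fcgr4 are related in sequence, so reads shared between them could be split or dropped by the counting.

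Promoter windows are shown for 5 genes: Fcgr4, Fcrls and Fcer1g, which were higher together in microglia-like cells of the transgenic groups, Fcgr2b, which was higher in astrocyte-like cells and oligodendrocyte precursor-like cells there, and Fcgr1, which was highest in an interferon-led microglia-like cluster. Each window runs 5′ to 3′ on the gene's strand from 250 bases before to 50 after the RefSeq start site (GRCm38.p6), and all 7 genes had an entry. Capitals mark GAGGAA or its reverse complement TTCCTC, the core bound by the macrophage factor PU.1, and TTCNNNGAA, the form of the STAT site known as GAS.
Fcgr4 promoter, chr1:171018676-171018975, plus strand: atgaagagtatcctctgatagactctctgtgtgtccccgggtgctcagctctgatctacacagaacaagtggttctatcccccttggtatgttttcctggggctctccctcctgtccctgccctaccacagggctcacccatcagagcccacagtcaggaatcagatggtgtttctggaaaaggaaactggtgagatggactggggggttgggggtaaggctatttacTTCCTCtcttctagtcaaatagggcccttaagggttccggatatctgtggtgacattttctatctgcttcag
Fcrls promoter, chr3:87263475-87263774, minus strand: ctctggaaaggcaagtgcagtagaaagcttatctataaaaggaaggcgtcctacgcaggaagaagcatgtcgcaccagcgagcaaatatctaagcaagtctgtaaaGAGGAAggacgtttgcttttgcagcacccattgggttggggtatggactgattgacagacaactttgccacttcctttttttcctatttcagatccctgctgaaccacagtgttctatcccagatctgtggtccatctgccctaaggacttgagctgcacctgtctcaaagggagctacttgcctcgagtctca
Fcer1g promoter, chr1:171234300-171234599, minus strand: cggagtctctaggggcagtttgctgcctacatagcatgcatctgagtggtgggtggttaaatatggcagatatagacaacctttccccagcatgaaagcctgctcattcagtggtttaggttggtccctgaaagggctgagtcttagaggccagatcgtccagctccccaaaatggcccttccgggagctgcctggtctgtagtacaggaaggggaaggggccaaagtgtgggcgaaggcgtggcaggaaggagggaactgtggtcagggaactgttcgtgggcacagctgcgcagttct
Fcgr2b promoter, chr1:170976022-170976321, minus strand: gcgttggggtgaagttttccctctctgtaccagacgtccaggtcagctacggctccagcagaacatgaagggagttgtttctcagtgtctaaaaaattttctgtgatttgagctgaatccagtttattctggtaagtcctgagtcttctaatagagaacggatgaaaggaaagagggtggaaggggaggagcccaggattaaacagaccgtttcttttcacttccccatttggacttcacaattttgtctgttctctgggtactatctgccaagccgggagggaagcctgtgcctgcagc
Fcgr1 promoter, chr3:96293920-96294219, minus strand: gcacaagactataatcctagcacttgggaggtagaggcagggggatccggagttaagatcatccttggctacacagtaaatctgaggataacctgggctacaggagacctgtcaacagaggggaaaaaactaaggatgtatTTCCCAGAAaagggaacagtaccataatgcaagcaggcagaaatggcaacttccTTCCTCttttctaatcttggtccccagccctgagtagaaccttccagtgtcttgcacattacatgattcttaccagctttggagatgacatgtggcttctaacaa

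The PU.1 core stood in the windows of 4 of 7 genes, Fcgr1, Fcgr3, Fcgr4 and Fcrls, and in 28.3% of 32851 RefSeq promoter windows of the same 300 bases. The GAS letters stood in 1 of 7, that of Fcgr1, and in 8.30% of all windows. No match was found in the windows of Fcgr2b, Fcer1g and Fcgrt. These matches describe letters, not binding. The windows of Fcgr2b and Fcgr3 follow RefSeq starts that lie inside the GENCODE gene spans given above. Windows at the GENCODE starts were not searched.

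Libraries held 28819852 to 141204910 UMIs each, and 90018 of 108892 barcodes were kept (2566 to 10312 per library, library medians of 5190.5 to 14886 UMIs over all barcodes). Any 2 libraries shared 1 to 28 barcodes, at most 0.468% of the smaller one. Clustering without the 7 genes gave 31 clusters, of which 11 were microglia-like by fixed markers such as Cx3cr1, P2ry12 and C1qa and held 50666 cells (994 to 7266 per library). The other named classes were endothelial-like (11568 cells), ependymal-like (7696), astrocyte-like (5743), oligodendrocyte precursor-like (3921), mural-like (1751), neuron-like (1060), T and NK cell-like (782), border-associated macrophage-like (605) and neutrophil-like (129), and 6097 cells stayed unnamed. No cluster was named oligodendrocyte-like. In microglia-like cells Clec7a stood at 27.8 to 84.1 CPM (UMIs of a gene per 1000000 UMIs of the class) in nTg, 899 to 1057 in SOD1G93A, and 0.792 to 2.45 and 2.11 to 3.70 in the knockout groups; counts assigned to Sod1, which may include reads of the human transgene, stood at 37.4 to 90.8 CPM without and 1601 to 3194 with the transgene, so all 14 libraries matched their labels on both genes.

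In microglia-like cells, Fcgr4, Fcrls and Fcer1g rose in both comparisons of transgenic with non-transgenic mice, SOD1G93A against nTg and SOD1G93A/Clec7a-KO against Clec7a-KO. Fcgr4 was 4.94 and 5.14 times as high, Fcrls 3.48 and 3.12 times as high and Fcer1g 2.09 and 2.63 times as high. Fcgr2b, the inhibitory receptor, and Fcgrt did not pass the test in either comparison, and Fcgr1 and Fcgr3 were near the threshold in 1 comparison each. None of the 7 genes passed the test between the knockout and its Clec7a-carrying counterpart, with or without the transgene. Levels are CPM of the UMIs summed per library and class, scaled by TMM factors, and tests are edgeR's quasi-likelihood test with Benjamini-Hochberg adjustment over all 16489 genes tested, with all 7 genes passing the filter on low counts. Of all genes tested, 32.8% were called in SOD1G93A against nTg (19.7% higher, 13.1% lower) and 46.6% in SOD1G93A/Clec7a-KO against Clec7a-KO (25.7% higher, 21.0% lower). Against that background 3 of 7 and 4 of 7 Fc receptor genes were higher, and 0 were lower. The fourth, Fcgr3, depended on the scaling and on single libraries.

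**Figure D1:**
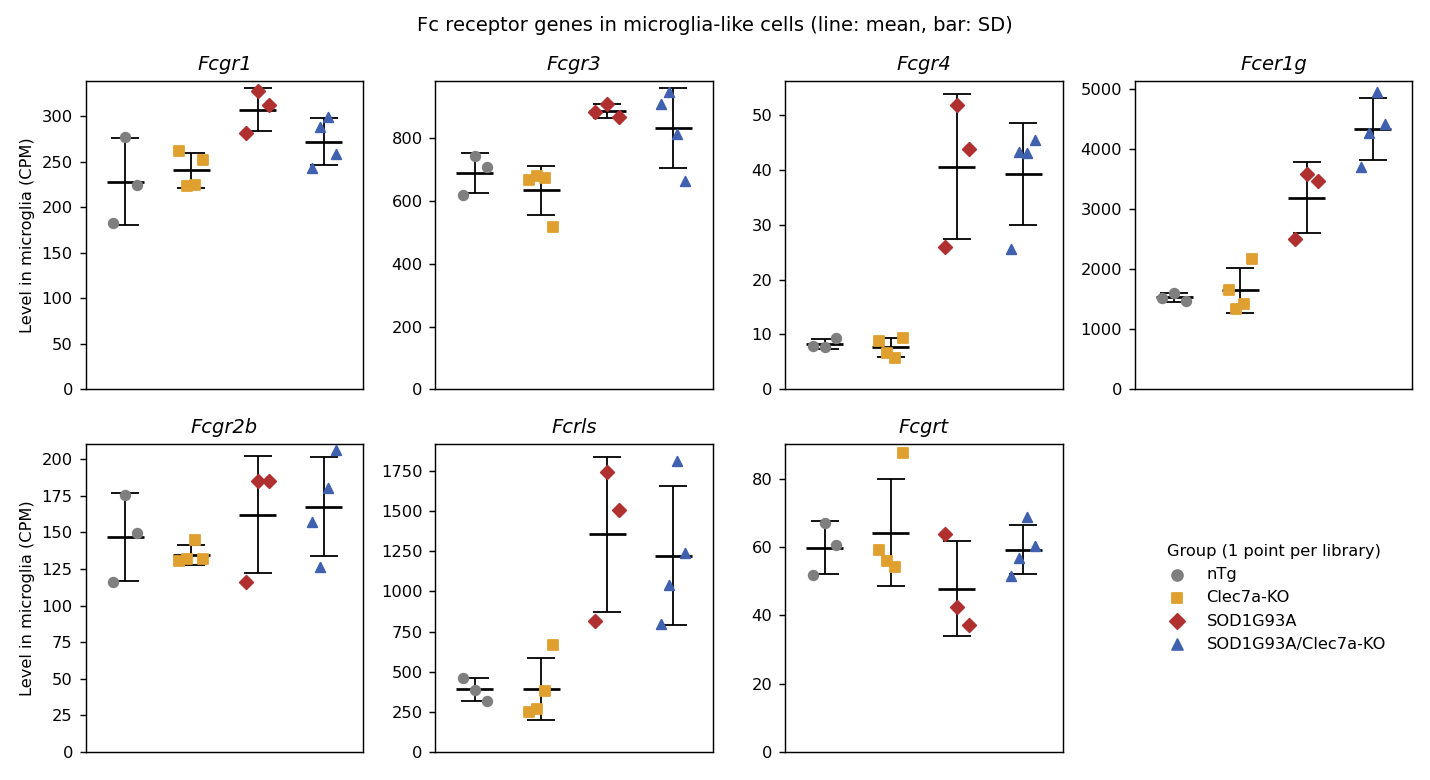
Level of each Fc receptor gene in microglia-like cells (CPM, TMM-scaled, vertical axis from 0) in the 14 libraries, with 1 point per library, the group mean as a line and the SD as a bar. With TMM scaling, Fcgr4, Fcer1g and Fcrls stand higher in every SOD1G93A and SOD1G93A/Clec7a-KO library than in any nTg or Clec7a-KO library, and without it this was not examined. The share of all genes separated in this way was not counted, and 32.8% and 46.6% of all genes were called in the transgene comparisons.

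Fcgr4 encodes an activating IgG receptor, and its counts were low in microglia-like cells. Its level was 7.81, 7.63 and 9.28 CPM in the 3 nTg libraries and 8.80, 6.65, 5.72 and 9.37 in the 4 Clec7a-KO libraries. It was 26.0, 51.8 and 43.8 CPM in SOD1G93A and 25.5, 43.1, 43.0 and 45.4 in SOD1G93A/Clec7a-KO. Every transgenic library was above every non-transgenic one, with the first replicate of each transgenic group the lowest. The share of all genes without such overlap was not counted, here or for the genes and classes below. The log2 fold change was 2.30 ± 0.28 (SE, adjusted p = 2.76e-05) for SOD1G93A against nTg and 2.36 ± 0.24 (adjusted p = 3.3e-06) for SOD1G93A/Clec7a-KO against Clec7a-KO, which placed it at ranks 514 and 503 of 16489 genes, counted from the highest.

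Fcrls varied widely between libraries of 1 group. It stood at 462, 387 and 320 CPM in nTg and at 247, 269, 381 and 668 in Clec7a-KO. It stood at 816, 1741 and 1510 CPM in SOD1G93A and at 797, 1039, 1810 and 1241 in SOD1G93A/Clec7a-KO. The transgenic and non-transgenic libraries did not overlap with TMM scaling, although the lowest transgenic library (797) was near the highest Clec7a-KO library (668). The log2 fold changes were 1.80 ± 0.39 (SE, adjusted p = 0.00308) and 1.64 ± 0.34 (adjusted p = 0.00134).

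Fcer1g, the shared signalling chain, had the highest CPM of the 7 genes. Its level was 1514, 1612 and 1468 CPM in nTg and 1650, 1338, 1428 and 2178 in Clec7a-KO. It was 2510, 3597 and 3474 CPM in SOD1G93A and 3702, 4265, 4954 and 4429 in SOD1G93A/Clec7a-KO. With TMM scaling, the transgenic libraries were again all above the others, and the 4 SOD1G93A/Clec7a-KO libraries were all above the 3 SOD1G93A libraries. The log2 fold changes were 1.06 ± 0.21 (SE, adjusted p = 0.00174) for SOD1G93A against nTg and 1.40 ± 0.19 (adjusted p = 3.65e-05) for SOD1G93A/Clec7a-KO against Clec7a-KO. CPM from 3′ tags was not divided by gene length, so its order between genes describes UMIs.

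Fcgr1 encodes the high-affinity IgG receptor. It stood at 182, 277 and 224 CPM in nTg, 262, 224, 224 and 251 in Clec7a-KO, 281, 328 and 312 in SOD1G93A, and 243, 288, 299 and 258 in SOD1G93A/Clec7a-KO. SOD1G93A and nTg did not overlap on the TMM scale, by a narrow margin, while SOD1G93A/Clec7a-KO and Clec7a-KO did. The log2 fold change was 0.43 ± 0.16 (SE, adjusted p = 0.0563) in the first comparison and 0.18 ± 0.14 (adjusted p = 0.313) in the second. The first was called in 4 of 26 alternatives: DESeq2 (adjusted p = 0.0472), library number as a covariate (adjusted p = 0.0355 by edgeR), the replicate block (adjusted p = 0.047 by edgeR) and without nTg replicate 2 (0.60, adjusted p = 0.0216).

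Fcgr3 encodes the low-affinity activating receptor. It stood at 620, 743 and 707 CPM in nTg, 667, 680, 673 and 516 in Clec7a-KO, 885, 910 and 866 in SOD1G93A, and 908, 948, 813 and 662 in SOD1G93A/Clec7a-KO. On the TMM scale SOD1G93A lay above nTg without overlap, while the lowest SOD1G93A/Clec7a-KO library lay inside the Clec7a-KO range. The log2 fold change was 0.36 ± 0.17 (SE, adjusted p = 0.119) and 0.39 ± 0.15 (adjusted p = 0.0411); the second call held in 8 of 26 alternatives. It was lost without any 1 of the 4 Clec7a-KO libraries, without SOD1G93A/Clec7a-KO replicate 1, 2 or 3, without SOD1G93A replicate 1 or 2 or nTg replicate 3. It was also lost with RLE scaling, library totals, no filter on low counts, Xist above Ddx3y as a covariate, clustering at resolution 0.5 or with the 7 genes kept, the P2ry12-led clusters alone, and the proliferating cluster added.

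Fcgr2b, the inhibitory receptor, stood at 116, 175 and 150 CPM in nTg, 130, 132, 145 and 132 in Clec7a-KO, 116, 185 and 185 in SOD1G93A, and 157, 126, 180 and 206 in SOD1G93A/Clec7a-KO, with the groups overlapping in both comparisons. The log2 fold changes were 0.14 ± 0.21 (SE, adjusted p = 0.639, 95% interval -0.27 to 0.56) and 0.31 ± 0.18 (adjusted p = 0.175, 95% interval -0.05 to 0.68). The UMIs of the activating Fcgr3 per UMI of the inhibitory Fcgr2b came to 5.74 ± 1.63 (SD, n = 3, 4.69 to 7.62) in SOD1G93A and 4.77 ± 0.56 (n = 3, 4.24 to 5.36) in nTg, a log2 difference of 0.24 with p = 0.5 in a two-sided exact permutation test that cannot go below 0.1. The ratio was 5.25 ± 1.83 (SD, n = 4, 3.22 to 7.498) in SOD1G93A/Clec7a-KO and 4.71 ± 0.58 (n = 4, 3.92 to 5.16) in Clec7a-KO, a log2 difference of 0.10 with exact permutation p = 0.743, where 0.0286 is the smallest possible. Adjusted over these 2 comparisons, the exact permutation p was 0.743 for both. With 1 library left out, the first difference ran from 0.01 (without SOD1G93A replicate 1) to 0.36 (without SOD1G93A replicate 3). The second ran from -0.10 (without SOD1G93A/Clec7a-KO replicate 2) to 0.31 (without SOD1G93A/Clec7a-KO replicate 4), so single libraries turned its sign.

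Fcgrt was low in microglia-like cells, at 51.7, 67.2 and 60.8 CPM in nTg, 59.2, 56.0, 54.2 and 87.6 in Clec7a-KO, 63.7, 42.5 and 37.4 in SOD1G93A, and 51.5, 56.7, 68.7 and 60.2 in SOD1G93A/Clec7a-KO. All groups overlapped, and the log2 fold changes were -0.32 ± 0.22 (SE, adjusted p = 0.269) and -0.11 ± 0.19 (adjusted p = 0.636). The first was called without SOD1G93A replicate 1, the highest of its group (-0.64, adjusted p = 0.0323), and both were called lower with library totals.

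**Figure D2:**
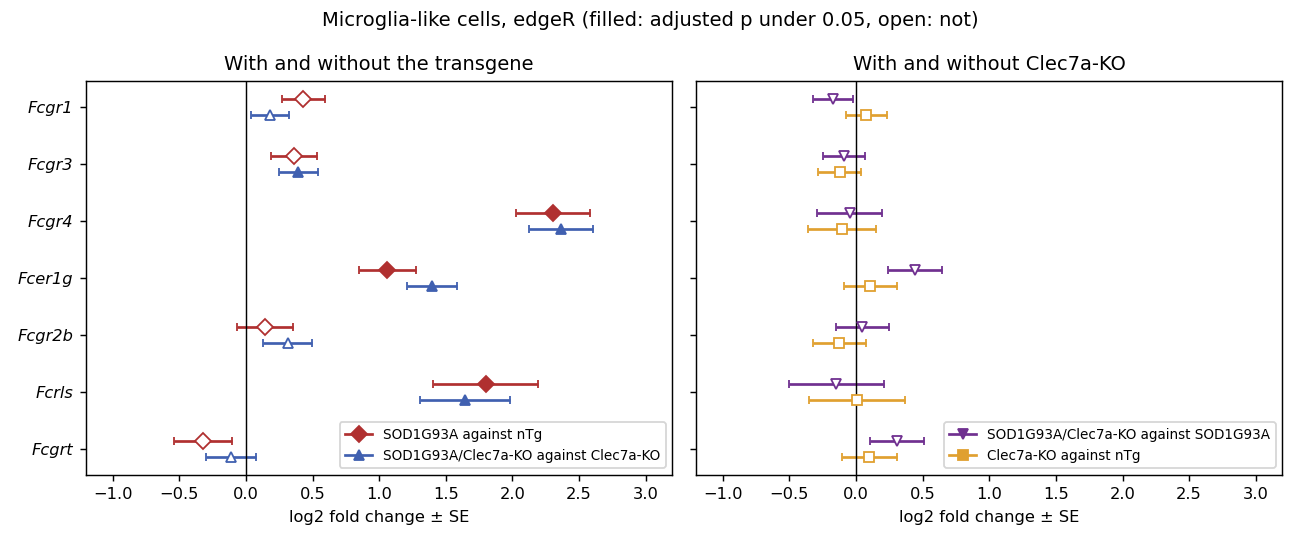
Log2 fold change ± SE of the 7 Fc receptor genes in microglia-like cells from edgeR, with the comparisons across the transgene on the left and those across Clec7a-KO on the right; filled symbols have an adjusted p under 0.05. Fcgr4, Fcrls and Fcer1g are filled in both transgene comparisons, Fcgr3 in 1 (its difference turns to -0.14 with library totals in place of TMM), and no symbol is filled on the right.

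The scaling between libraries bears on the smaller of these differences and on the overlap of libraries. Overlap was read on TMM-scaled CPM, and whether it is the same without TMM scaling was not examined. TMM factors multiplied plain CPM by 0.798 to 0.959 in the non-transgenic microglia-like sums and by 1.08 to 1.31 in the transgenic ones. With library totals in place of TMM, an alternative chosen after these factors were seen, the median log2 fold change of all genes moved from 0.01 to -0.46 (SOD1G93A against nTg) and from 0.00165 to -0.53 (SOD1G93A/Clec7a-KO against Clec7a-KO), and the higher genes went from 59.9% to 19.5% and from 55.0% to 19.02% of all calls. Fcgr4 (1.82 in both comparisons), Fcrls (1.31 and 1.13) and Fcer1g (0.59 and 0.87) stayed higher and past the threshold. Fcgr1 (-0.04 and -0.35), Fcgr3 (-0.10 and -0.14) and Fcgr2b (-0.33 and -0.23) turned negative, with Fcgr1 past the threshold in the second comparison (adjusted p = 0.0308), and Fcgrt was lower past the threshold in both (-0.78 and -0.63, adjusted p = 0.00664 and 0.006). Fcgr1, Fcgr2b, Fcgr3 and Fcgrt had no call under both scalings in the same comparison and direction.

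The knockout comparisons gave no calls among the 7 genes. For SOD1G93A/Clec7a-KO against SOD1G93A, 3 genes of 16489 (0.0182%) passed, and 1928 had an unadjusted p under 0.05; DESeq2 called 40 genes and 0 of the 7. Fcer1g had the largest difference of the 7, 0.44 ± 0.20 on the log2 scale (SE, unadjusted p = 0.0433, adjusted p = 0.424 by edgeR). With TMM scaling it was higher in all 4 SOD1G93A/Clec7a-KO libraries, from 3194 ± 595 (SD, n = 3) to 4337 ± 516 CPM (n = 4). The log2 fold changes of the others lay between -0.17 (Fcgr1, 95% interval -0.47 to 0.12) and 0.31 (Fcgrt, 95% interval -0.09 to 0.71). For Clec7a-KO against nTg, 5 genes (0.0303%) passed, 384 had an unadjusted p under 0.05, DESeq2 called 9, and the 7 lay between -0.13 (Fcgr2b, -0.52 to 0.26) and 0.11 (Fcer1g, -0.28 to 0.49). The difference between these knockout effects was called for 0 genes by edgeR (345 at an unadjusted p under 0.05) and 3 by DESeq2, none of them Fc receptor genes. The interval of Fcrls (-0.85 to 0.55 in transgenic mice) was the widest of the 7.

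The microglia-like cells were not the same clusters in all groups. Clusters led by P2ry12, Crybb1 and Tmem119 (clusters 0, 7 and 13, the last also led by Xist) held most microglia-like cells of nTg and Clec7a-KO mice, while clusters led by Ccl12 (1), Il4i1 and Itgax (3), Gpnmb (5), Mmp12 (14), Ppfia4 and C1qa (9) and Il12b and Acod1 (10) held most of those with the transgene. Itgax among the leading genes of clusters 3 and 19 is also a dendritic cell marker, and Ms4a7 in clusters 5 and 14 a macrophage marker. Summed CPM of 8 border-associated macrophage markers was 1.8 to 2.8 without and 49.1 to 116 with the transgene, that of 6 monocyte markers 4.3 to 10.7 and 136 to 252, and that of 6 dendritic cell markers 7.0 to 18.5 and 183 to 335; at most 3, 2 and 2 markers of these lists were at 0 in a library. That of 6 oligodendrocyte precursor markers was 6.6 to 25.2 without and 24.9 to 74.1 with the transgene, and that of 6 endothelial markers 38.0 to 87.5 and 75.0 to 214.9, with 0 markers at 0. T and NK cell markers summed to 3.5 to 7.7 in SOD1G93A and 0.2 to 2.0 in the other groups, and 6 neuron markers to 7.9 to 17.4 without and 1.8 to 5.2 with the transgene. The 6 B cell markers, Ighm among them, summed to 138 to 200 CPM without and 81.0 to 173 with the transgene, with at most 4 at 0 in a library. The 6 astrocyte markers summed to 163 to 371 and 90.1 to 179, and the 6 mural markers to 15.6 to 31.7 and 8.3 to 20.3. The 10 dissociation stress genes summed to 22086 to 33407 CPM without and 13097 to 17582 with the transgene. The part of the other cells in the Fc receptor levels was not tested.

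Fcgr4 was also higher when only the P2ry12-led clusters were summed (113 to 3558 cells per library), a set chosen after the clusters were seen. Its log2 fold change there was 1.55 ± 0.21 (SE, adjusted p = 9.03e-04) for SOD1G93A against nTg and 1.89 ± 0.19 (adjusted p = 1.69e-05) for SOD1G93A/Clec7a-KO against Clec7a-KO. Fcrls (1.27, adjusted p = 0.0852, and 1.01, adjusted p = 0.0549) and Fcer1g (0.23, adjusted p = 0.673, and 0.59, adjusted p = 0.0530) missed the threshold. In these cells 120 and 609 of 13267 genes were called. The part of free RNA from the other microglia-like cells in these levels was not tested.

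Fcer1g had a graded level over the microglia-like clusters. In clusters with at least 20 cells of a library and without TMM scaling, its median over libraries was lowest in the P2ry12-led clusters 13 (1694 CPM, n = 5 libraries) and 0 (1954, n = 14) and highest in the Mmp12-led cluster 14 (3575, n = 7). Within cluster 0 it was 1846 ± 84.3 CPM in nTg (SD, n = 3), 1843 ± 258 in Clec7a-KO (n = 4), 1966 ± 161 in SOD1G93A (n = 3) and 2474 ± 123 in SOD1G93A/Clec7a-KO (n = 4). Fcrls differed within cluster 0, with 520 ± 115.2 CPM in nTg, 468 ± 169 in Clec7a-KO, 1079 ± 347 in SOD1G93A and 789 ± 146 in SOD1G93A/Clec7a-KO. Its cluster medians spanned 492 (cluster 13) to 1053 CPM (cluster 3), but over different libraries: all 7 of cluster 3 and of cluster 14 were transgenic, and 4 of the 5 of cluster 13 were not. The 1 SOD1G93A/Clec7a-KO library in cluster 13 had 1383 CPM of Fcrls, within the 795 to 1518 of that group in cluster 3, and 1859 CPM of Fcer1g, below the 3575 to 4102 of that group in cluster 14. The order of cluster medians thus mixes cluster and group, and these levels are a description, with no test.

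**Figure D3:**
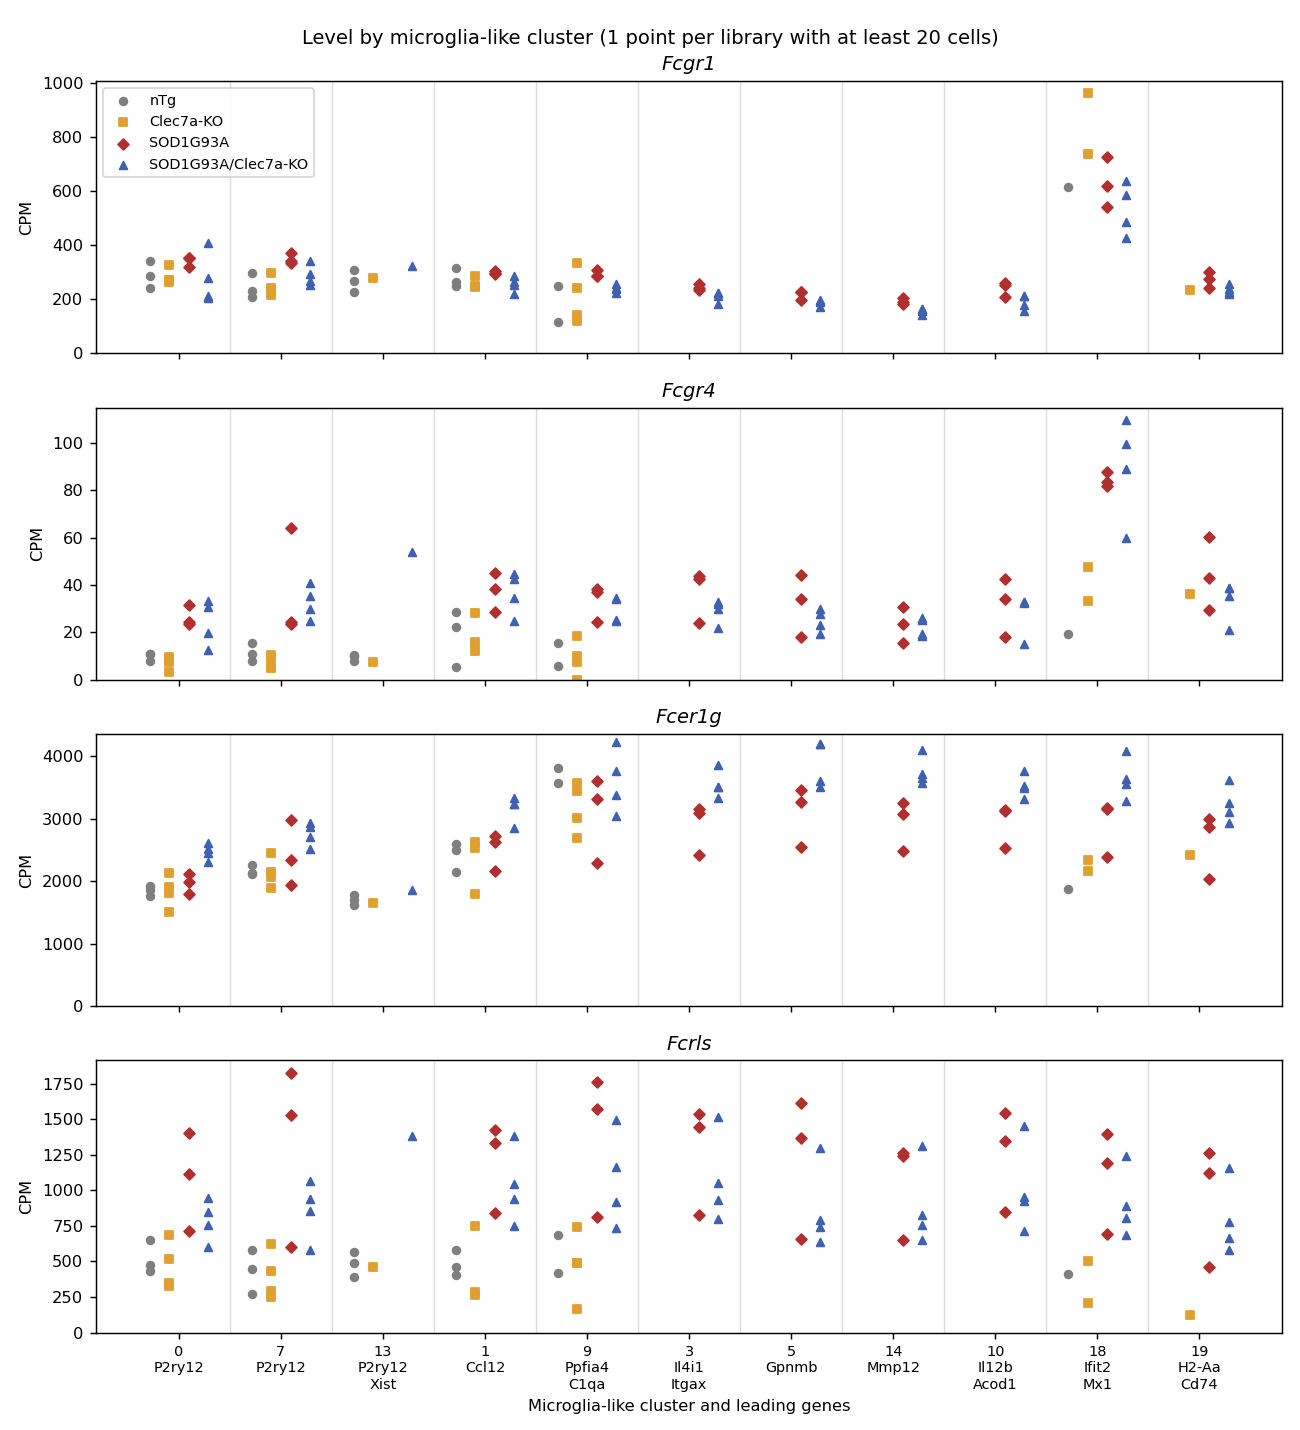
Level of Fcgr1, Fcgr4, Fcer1g and Fcrls (CPM without TMM scaling, vertical axis from 0) in each microglia-like cluster, with 1 point per library of at least 20 cells of the cluster and the clusters named by leading genes. Fcgr1 and Fcgr4 have their highest points in cluster 18, led by Ifit2 and Mx1.

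Cluster 18, led by the interferon-induced genes Ifit2, Ifit3 and Mx1, had the highest Fcgr1 and Fcgr4. Fcgr1 had a median of 617 CPM there (427 to 966, n = 10 libraries), above the 164 to 281 CPM of the other microglia-like clusters. It was 614 in the 1 nTg library with enough cells, 737 and 966 in 2 Clec7a-KO libraries, 630 ± 93.0 in SOD1G93A (SD, n = 3) and 534 ± 95.5 in SOD1G93A/Clec7a-KO (n = 4). Fcgr4 had a median of 82.7 CPM (19.3 to 110), with 19.3 in nTg, 33.3 and 47.8 in Clec7a-KO, 84.4 ± 3.00 in SOD1G93A and 89.6 ± 21.5 in SOD1G93A/Clec7a-KO. Fcgr3 was lowest in the Il12b-led cluster 10 (median 501 CPM) and in cluster 14 (551), and highest in cluster 19, led by H2-Aa and Cd74 (886). Fcgrt ran from 35.9 CPM in cluster 14 to 75.2 in cluster 13, the reverse of Fcer1g at both ends, and Fcgr2b from 110 in cluster 10 to 175 in cluster 13.

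Over the 14 libraries, the genes most like each Fc receptor gene by Pearson correlation of log2 CPM, among 5635 genes with a mean of at least 20 CPM, were the following. For Fcgr4 they were Bst2 (r = 0.99, and 0.91 in deviations from the group means) and Ifitm3 (0.99 and 0.97), both known as interferon-induced. For Fcer1g they were the respiratory chain genes Ndufb8 (0.99 and 0.96) and Cox5a (0.99 and 0.89), for Fcgr3 the proteasome genes Psmd10 (0.96 and 0.95) and Psmb4 (0.96 and 0.91), and for Fcrls Fem1b (0.96 and 0.81) and Arpc5 (0.96 and 0.88). For Fcgr1 they were Cd180 (0.85 and 0.77) and Fgl2 (0.85 and 0.69), for Fcgr2b Xlr (0.89 and 0.88) and Lztfl1 (0.86 and 0.83), and for Fcgrt Pip4p1 (0.95 and 0.95) and Nelfb (0.95 and 0.94). Among the 7, the highest correlation over libraries was that of Fcgr4 and Fcer1g (0.95 and 0.81), and the highest in deviations from the group means that of Fcer1g and Fcrls (0.92 and 0.85). Fcgr3 and Fcer1g had 0.58 over libraries and -0.50 in deviations from the group means. The points share library, depth and group, and the first value of each pair carries the group difference.

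The pathway around the receptors was read from lists of genes grouped by role. Of 26 genes of activating signalling, 6 were higher and 3 lower in SOD1G93A against nTg, and 5 higher and 6 lower in SOD1G93A/Clec7a-KO against Clec7a-KO, with medians of 0.03 in both, beside 0.0117 and 0.00165 for all genes. Of all genes tested, 19.7% were higher and 13.1% lower in the first comparison and 25.7% and 21.0% in the second, so the list's counts were near these shares. The Src family kinase gene Fgr had the largest fold change of the list, from 8.37 ± 3.31 CPM in nTg to 47.3 ± 6.41 in SOD1G93A (SD, n = 3 and 3, adjusted p = 2.49e-05) and from 8.43 ± 1.41 in Clec7a-KO to 63.9 ± 17.5 in SOD1G93A/Clec7a-KO (n = 4 and 4, adjusted p = 9.46e-07). Fyn, of the same family, rose by log2 fold changes of 1.12 and 1.06 (adjusted p = 2.69e-05 and 5.8e-06). Pik3r1, a regulatory subunit of PI3-kinase, fell by 0.64 and by 1.09 on the log2 scale (adjusted p = 0.0114 and 5e-05), and Pik3cg, a catalytic subunit of another class of the enzyme, fell by 0.67 in the second (adjusted p = 0.00307). Plcg1, a phospholipase, fell by 0.51 and by 0.40 (adjusted p = 0.0315 and 0.0363). The adaptor gene Lat rose by 1.44 in the first comparison (adjusted p = 0.0245), from 0.28 ± 0.03 to 0.76 ± 0.28 CPM.

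Of 14 genes of inhibitory signalling, 1 was higher and 2 lower in the first comparison and 3 higher and 5 lower in the second, with medians of -0.13 and -0.18, beside the same all-gene shares of 19.7% and 13.1%, and 25.7% and 21.0%. The adaptor gene Dok2 rose from 1.12 ± 0.21 to 5.87 ± 1.06 CPM (SD, n = 3 and 3, adjusted p = 6.99e-05) and from 1.13 ± 0.42 to 6.15 ± 1.54 (n = 4 and 4, adjusted p = 9.01e-06). Its relative Dok3 fell from 22.9 ± 3.57 to 8.12 ± 2.09 CPM (adjusted p = 8.08e-04) and from 29.4 ± 8.92 to 14.55 ± 3.82 (adjusted p = 0.00259). Inpp5d, the phosphatase recruited by Fcgr2b, fell by 0.455 and by 0.594 on the log2 scale (adjusted p = 0.0433 and 0.00328), and the Csk-binding adaptor gene Pag1 by 0.81 in the second (adjusted p = 0.00992), where the phosphatase gene Inppl1 rose by 0.49 (adjusted p = 0.00473).

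Of 20 genes of the engulfment machinery, 8 were higher and 1 lower, and 8 higher and 2 lower, with medians of 0.07 and 0.28, beside 19.7% higher and 13.1% lower, and 25.7% and 21.0%, of all genes, whose medians were 0.0117 and 0.00165. The Arp2/3 subunit gene Arpc1b rose from 507 ± 21.1 to 869 ± 101 CPM (SD, n = 3 and 3, adjusted p = 0.0133) and from 567 ± 137.5 to 1100 ± 231 (n = 4 and 4, adjusted p = 8.95e-04). Arpc3 rose by log2 fold changes of 0.845 and 0.885 (adjusted p = 4.42e-04 and 5.13e-05), and Myo1f, a myosin gene, by 0.657 and 0.952 (adjusted p = 0.00983 and 1.56e-04). The actin-bundling gene Lcp1 rose by 0.43 in the first (adjusted p = 0.0481). Elmo1, whose product acts with Dock proteins on Rac, fell from 233 ± 16.4 to 98.1 ± 8.39 CPM (adjusted p = 3.65e-05) and from 226 ± 16.9 to 87.65 ± 14.8 (adjusted p = 2.41e-06), and Fcho2, a membrane-bending protein gene, by 0.79 in the second (adjusted p = 0.00155). With library totals in place of TMM, the counts became 4 higher and 11 lower, and 3 and 16, of activating signalling, 1 and 7, and 1 and 9, of inhibitory signalling, and 1 and 8, and 3 and 9, of engulfment. All genes shifted likewise, to 8.75% higher and 36.2% lower, and 11.2% and 47.8%. Under that scaling Lat, Lcp1 (-0.04) and Arpc1b in the first comparison and Inppl1 (-0.03) in the second missed the threshold. Calls of Fyn, Plcg1, Inpp5d, Arpc3 and Myo1f were compared between scalings in 1 comparison each, and passed there with the same direction.

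Other receptors that pair with Fcer1g stood near 0 without the transgene. Of 8 listed, 3 passed the filter on low counts, all C-type lectin genes, and all 3 were higher in both comparisons. Clec4n stood at 0.01 ± 0.02 CPM in nTg, 0.13 ± 0.09 in Clec7a-KO, 4.98 ± 1.01 in SOD1G93A and 4.59 ± 2.26 in SOD1G93A/Clec7a-KO (SD, adjusted p = 3.91e-06 and 2.22e-06). Clec4d stood at 0.11 ± 0.10, 0.23 ± 0.28, 12.2 ± 2.59 and 7.75 ± 2.24 CPM (adjusted p = 3.93e-06 and 3.65e-06), and Clec4e, the receptor known as Mincle, at 0.53 ± 0.56, 0.15 ± 0.16, 14.6 ± 6.94 and 9.69 ± 5.44 (adjusted p = 3.6e-04 and 3.77e-05). Since they passed the filter through the transgenic libraries, their count supports nothing, and fitted folds at such low levels are not given. B2m, the partner of Fcgrt, rose from 1619 ± 136 to 4433 ± 2031 CPM (n = 3 and 3, adjusted p = 0.0018) and from 1708 ± 316 to 3174 ± 310 (n = 4 and 4, adjusted p = 0.00969), the second missing the threshold with library totals (log2 fold change 0.36, adjusted p = 0.223). Of 11 other immunoglobulin-binding receptors 2 were tested, Fcrl1 and Trim21, and 0 passed, but with library totals Trim21 was lower in both (-0.45 and -0.72, adjusted p = 0.036 and 6.77e-04). Of 12 immunoglobulin chain genes Ighm and Ighd were tested, and Ighd fell from 3.23 ± 0.55 to 0.76 ± 0.20 CPM (adjusted p = 7.44e-04) and from 3.80 ± 1.26 to 0.98 ± 0.39 (adjusted p = 2.25e-04). With library totals Ighm was lower too (-1.09 and -1.02, adjusted p = 0.00257 and 8.43e-04). The summed B cell markers in these cells were 140 to 151 CPM in nTg and 81.0 to 123 in SOD1G93A. They were 138 to 200 in Clec7a-KO and 91.4 to 173 in SOD1G93A/Clec7a-KO, with overlap. The part of B cells in the immunoglobulin levels was not tested. None of the genes of these lists passed in the knockout comparisons.

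Across classes, Fcgrt had a different pattern from the other 6 genes. Its median over libraries was highest in endothelial-like cells at 507 CPM (394 to 699), followed by mural-like cells at 288 (217 to 398) and border-associated macrophage-like cells at 271 (163 to 409), whose ranges overlapped each other. Astrocyte-like cells had 81.0 CPM (64.3 to 127), and microglia-like cells, with 57.9 (37.4 to 87.6), overlapped them. T and NK cell-like, neutrophil-like, neuron-like, ependymal-like and oligodendrocyte precursor-like cells had medians of 10.8 to 28.02. The CPM scale counts UMIs of all genes in the class, so a lower level can also come with more RNA of other genes.

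In endothelial-like cells Fcgrt stood at 425, 458 and 441 CPM in nTg and at 525, 394, 489 and 554 in Clec7a-KO. It stood at 612, 436 and 413 in SOD1G93A and at 532, 699, 670 and 685 in SOD1G93A/Clec7a-KO. The last 3 of these libraries were above all others, and Fcgrt did not pass in either transgene comparison there, where 1.26% and 1.12% of all genes did.

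**Figure D4:**
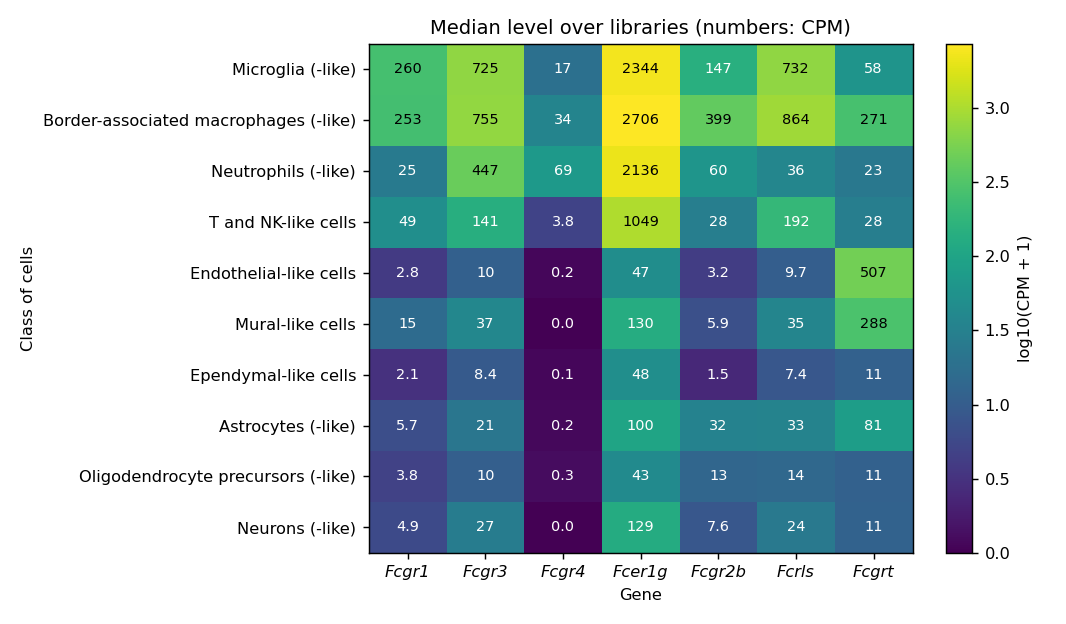
Median level over libraries of the 7 Fc receptor genes in 10 classes of cells, with the number giving CPM and the colour log10(CPM + 1). Fcgr1, Fcgr2b, Fcgr3, Fcer1g and Fcrls have their highest medians in microglia-like or border-associated macrophage-like cells, Fcgr4 in neutrophil-like and Fcgrt in endothelial-like cells.

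Border-associated macrophage-like cells, 13 to 84 per library, carried all 7 genes. Their medians over 14 libraries were 253 CPM for Fcgr1, 755 for Fcgr3, 34.4 for Fcgr4, 2706 for Fcer1g and 864 for Fcrls. Fcgr2b stood at 399 CPM (272 to 488), without overlap with microglia-like cells (116 to 206). None of the 7 genes passed in either transgene comparison there, where 0.722% and 0.984% of 4573 genes did. Fcgr4 stood at 20.9 ± 3.34 CPM in nTg (SD, n = 3) and 59.4 ± 13.1 in SOD1G93A (n = 3), but at 34.5 ± 15.5 in Clec7a-KO (n = 4) and 36.6 ± 24.4 in SOD1G93A/Clec7a-KO (n = 4). These Fcgr4 levels rest on few counts, 185 UMIs over all 14 libraries, and nTg held 74 such cells. In neutrophil-like cells, with 2 libraries of at least 10 cells, both Clec7a-KO, Fcgr4 stood at 59.4 and 78.5 CPM, Fcgr3 at 453 and 440, Fcer1g at 2418 and 1855, and Fcgr2b at 70.2 and 49.95. T and NK cell-like cells had a median of 1049 CPM of Fcer1g (122 to 2458), above the level set by free RNA in 13 of 13 libraries. They held 7221 Fcer1g UMIs against 5172 expected from free RNA, with a median ratio of 1.84 over libraries. The part of free RNA in this level was not tested.

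Outside the myeloid classes, levels were set beside the one that free RNA from microglia would give. Fcgrt had 47858 UMIs against 78.1 expected in endothelial-like, 1621 against 21.5 in mural-like and 2365 against 48.2 in astrocyte-like cells. Its low level in microglia-like cells keeps this expectation low, and free RNA from endothelial-like cells, where Fcgrt was highest, is not covered by it, so the part of free RNA in the Fcgrt level of astrocyte-like and mural-like cells was not tested. The other genes, apart from Fcgr2b in astrocyte-like and oligodendrocyte precursor-like cells, lay nearer to it. This level was set for each library as the microglial CPM of the gene times the ratio of C1qa, C1qb and C1qc in the class to that in microglia-like cells. In astrocyte-like cells the median ratio of measured to expected was 1.20 for Fcer1g, 0.94 for Fcgr3, 1.00 for Fcrls and 0.83 for Fcgr1, and in endothelial-like cells 1.10 for Fcer1g and 1.13 for Fcgr2b. Fcer1g in astrocyte-like cells was above the level in 10 of 14 libraries, and Fcgr2b in neuron-like cells in 8 of 13, with a median ratio of 1.54. Transgene comparisons were nonetheless called. Members with few UMIs without the transgene, such as Fcgr2b with 4 to 7 in nTg and 1 to 21 in Clec7a-KO astrocyte-like libraries, passed the filter on low counts through the transgenic libraries, so the counts of calls in these classes support nothing. Of 6 tested Fc receptor genes, 5 and 5 were higher in astrocyte-like cells (17.1% and 17.7% of all genes), 5 and 4 in endothelial-like (1.22% and 1.06%) and 3 and 4 in ependymal-like cells (1.06% and 1.22%). In neuron-like cells 2 and 2 of 5 were higher (0.58% and 0.333%), in oligodendrocyte precursor-like cells 1 and 3 of 6 (0.726% and 2.73%), and in mural-like cells 0 of 4 (0.106% and 0.291%). Single libraries moved these counts outside astrocyte-like cells. In neuron-like cells the first count went to 0 without nTg replicate 1 or 3 or SOD1G93A replicate 1, and to 1 without SOD1G93A replicate 3. The second went to 0 with DESeq2 and without Clec7a-KO replicate 2 or SOD1G93A/Clec7a-KO replicate 3, and to 1 without nTg replicate 1, SOD1G93A replicate 3, Clec7a-KO replicate 1 or 3 or SOD1G93A/Clec7a-KO replicate 1 or 2. In endothelial-like cells the first went to 3 without nTg replicate 2 or 3 or SOD1G93A replicate 2, and the second to 2 without Clec7a-KO replicate 2 or SOD1G93A/Clec7a-KO replicate 1. In ependymal-like cells the second went to 2 with DESeq2 and without Clec7a-KO replicate 2 or SOD1G93A/Clec7a-KO replicate 2. In oligodendrocyte precursor-like cells the first went to 3 without nTg replicate 2 and to 2 without SOD1G93A replicate 1 or Clec7a-KO replicate 1, and the second to 1 without Clec7a-KO replicate 2 or 3. In mural-like cells the second went from 0 to 1 with DESeq2, with the replicate block and without nTg replicate 1 or SOD1G93A/Clec7a-KO replicate 3. The part of free RNA in these calls was not tested, and a level near the expected one is not read as expression.

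Fcgr2b rose in astrocyte-like cells of both transgenic groups, to levels near those of microglia-like cells, and it stood above the free RNA level in each of the 7 transgenic libraries. It was 1.99, 1.24 and 1.67 CPM in nTg (7, 4 and 7 UMIs) and 3.76, 0.52, 0.79 and 0.91 in Clec7a-KO (21, 1, 2 and 1 UMIs). It was 59.9, 226 and 108 CPM in SOD1G93A (56, 255 and 271 UMIs) and 79.8, 160, 122 and 140 in SOD1G93A/Clec7a-KO (163, 153, 68 and 21 UMIs). The lowest transgenic library lay far above the highest of the others, and the groups did not overlap.

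The log2 fold changes of Fcgr2b in astrocyte-like cells were 6.27 ± 0.51 (SE, adjusted p = 1.15e-07) and 5.81 ± 0.47 (adjusted p = 8.18e-08). Since Fcgr2b passed the filter through the transgenic libraries, where it was high, its fitted values here and in oligodendrocyte precursor-like cells are given as a description and support nothing. Because 3 of 4 Clec7a-KO libraries held 1 or 2 UMIs, the second size depends on the prior count of the fit. Over the alternatives the first log2 fold change ran from 5.665 to 6.59 and the second from 4.35 to 7.32. Free RNA would have given 7.90, 5.77 and 7.44 CPM in SOD1G93A and 14.2, 22.6, 7.23 and 13.6 in SOD1G93A/Clec7a-KO. The measured level was 7.6 to 37.9 and 5.7 to 16.4 times that, with both levels taken as CPM without TMM scaling.

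Among astrocyte-like cells with no C1q UMI, 37 of 216 cells in SOD1G93A and 30 of 177 in SOD1G93A/Clec7a-KO had an Fcgr2b UMI, against 9 of 1397 in nTg and 6 of 1405 in Clec7a-KO, and the log2 fold changes there were 6.21 (adjusted p = 1.09e-09) and 5.90 (adjusted p = 5.74e-08). Fcer1g (3.31 and 2.28, adjusted p = 6.08e-05 and 0.00645) and Fcrls (3.58 and 3.06, adjusted p = 8.68e-04 and 0.0251) were called in the same cells, so this subset does not set Fcgr2b apart from them. After thinning every cell to 2000 UMIs, 16.8% ± 9.93 (SD, n = 3) of astrocyte-like cells in SOD1G93A and 16.5% ± 5.28 (n = 4) in SOD1G93A/Clec7a-KO had an Fcgr2b UMI, against 0.535% ± 0.303 in nTg and 0.352% ± 0.268 in Clec7a-KO; before thinning the shares were 23.5%, 25.8%, 0.917% and 0.659%. In ependymal-like cells the thinned shares were 0.55%, 0.775%, 0.11% and 0.28% in the same order. Library medians were 2362 to 6684.5 UMIs in astrocyte-like and 4574 to 12062 in ependymal-like cells, and thinning kept 599 of 835, 604 of 873, 1664 of 1855 and 1838 of 2180 astrocyte-like cells in the same order.

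Fcgr2b was higher in both astrocyte-like clusters, whose shares differed between groups. In cluster 8, led by Slc7a10 and Gjb6 and holding most astrocyte-like cells of nTg and Clec7a-KO, it was 1.39 ± 0.18 CPM in nTg (SD, n = 3), 1.24 ± 0.95 in Clec7a-KO (n = 4), 157 ± 129.9 in SOD1G93A (n = 3, 29.3 to 289) and 141 ± 83.3 in SOD1G93A/Clec7a-KO (n = 4, 40.1 to 240). In cluster 20, led by S100a6, Gfap and C3, it was 4.05 ± 3.68, 4.46 ± 7.72, 92.3 ± 23.9 and 114.6 ± 5.18 CPM, with n = 3 in each. Cluster 20 held 428 of 835 astrocyte-like cells in SOD1G93A and 431 of 873 in SOD1G93A/Clec7a-KO, against 172 of 1855 in nTg and 209 of 2180 in Clec7a-KO.

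Oligodendrocyte precursor-like cells showed the same direction at a lower level. Fcgr2b was 2.21, 2.31 and 0.54 CPM in nTg and 4.11, 0, 1.47 and 2.58 in Clec7a-KO, where the library at 0 allows up to 1.16 CPM. It was 21.2, 110 and 71.8 CPM in SOD1G93A and 35.3, 48.8, 55.4 and 34.7 in SOD1G93A/Clec7a-KO, all above the other libraries. The log2 fold changes were 5.38 ± 0.65 (SE, adjusted p = 3.12e-04) and 4.26 ± 0.60 (adjusted p = 0.00115), with 2 to 7 UMIs in nTg and 0 to 15 in Clec7a-KO libraries. Free RNA would have given 2.30, 8.51 and 1.86, and 4.04, 4.45, 3.11 and 2.67 CPM. Among cells with no C1q UMI, 14 of 147 and 21 of 114 had an Fcgr2b UMI, against 3 of 553 in nTg and 5 of 678 in Clec7a-KO; Fcer1g was also called there in the second comparison (3.08, adjusted p = 2.14e-04). In astrocyte-like cells SOD1G93A/Clec7a-KO and SOD1G93A overlapped, and 0.0237% of genes passed between them, Fcgr2b not among them.

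**Figure D5:**
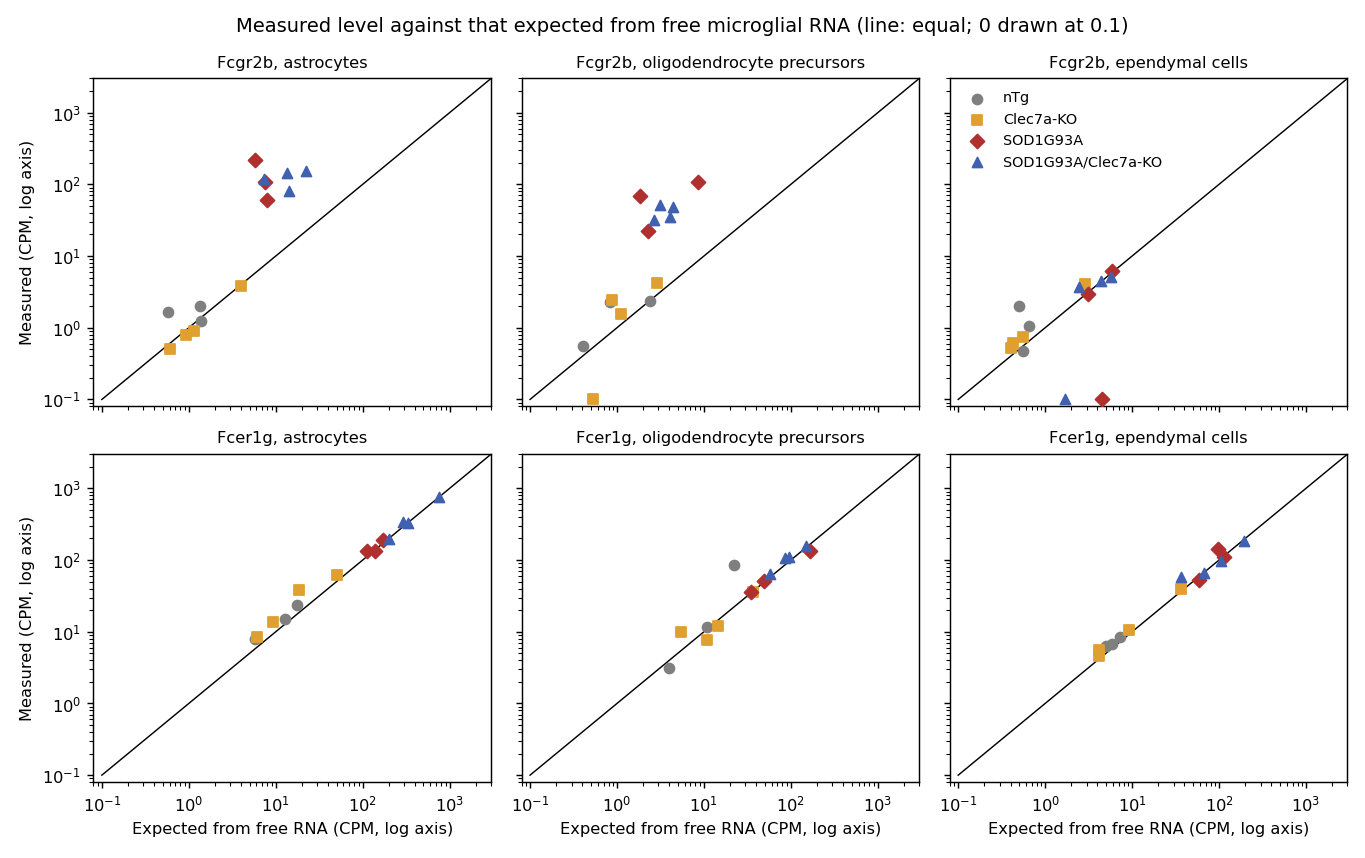
Measured CPM of Fcgr2b (upper row) and Fcer1g (lower row) in astrocyte-like, oligodendrocyte precursor-like and ependymal-like cells against the CPM expected from free microglial RNA, both axes on a log scale, 1 point per library, with the line where both are equal and values of 0 drawn at 0.1. Fcer1g lies nearer the line in all 3 classes, while Fcgr2b of the transgenic libraries lies above it in astrocyte-like and oligodendrocyte precursor-like cells.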

How the data were processed

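The 14 libraries were made on the 10x Genomics platform, per the labels. The matrices the authors deposited hold whole-number UMI counts per gene and barcode; the submitters' processing notes name Cell Ranger, Seurat, DESeq2 and mm10, and the file headers give software version 3.0.2. Cells with under 500 genes, under 1000 UMIs or over 15% mitochondrial UMIs were left out (7127 on depth, 4963 on mitochondria). The cells with the highest Scrublet scores in each library (6784 in all) were removed as doublets. Their number was fixed by an assumed rate of 0.8% per 1000 barcodes, not by a score threshold. Cells were clustered with Leiden in scanpy 1.11.5, leaving out the 7 genes, and named from marker lists, so class names can differ from the study's. Counts were summed per library and class, leaving out classes under 10 cells in a library. They were tested with edgeR 4.0.16 (quasi-likelihood, TMM, filterByExpr, all 14 libraries in 1 fit, Benjamini-Hochberg), with SE from the fit. Alternatives were DESeq2 1.42.0, RLE scaling, library totals, no filter, covariates, a replicate block, left-out libraries, other clusterings, no doublet removal and cell subsets. Pathway genes named were the 2 with the highest and the 2 with the lowest fold change past the threshold in each list and comparison; values of these genes in the other comparison are also given. The scripts were tested on simulated data. The members, lists and tests were chosen with earlier results of these data known. CPM floors (3 UMIs) cover counting error only.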

Additional observations from a re-analysis of the deposited data

Results flagged for a closer look

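Among 30 groups of 4 libraries checked, 6 held a library far from the others; chance gives about 1 in 20 groups (5%). In microglia-like cells, Fcgr2b was 144.7 CPM in Clec7a-KO replicate 3 against 130 to 132 in the other replicates. Fcgr3 was 516 CPM in Clec7a-KO replicate 4 against 667 to 680, and Fcgrt was 87.6 CPM in the same library against 54.2 to 59.2. Fcgr4 was 25.5 CPM in SOD1G93A/Clec7a-KO replicate 1 against 43.0 to 45.4. In astrocyte-like cells, Fcgr2b was 3.76 CPM in Clec7a-KO replicate 1 against 0.52 to 0.91. In mural-like cells, Fcgrt was 398 CPM in SOD1G93A/Clec7a-KO replicate 3 against 288 to 293.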

How the results depend on the processing

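In microglia-like cells 3 Fc receptor genes were higher in SOD1G93A against nTg and 4 in SOD1G93A/Clec7a-KO against Clec7a-KO, beside 19.7% and 25.7% of all genes. When only the P2ry12-led clusters were used, 1 and 1 were called, with the counts over all genes in these cells given above. With library totals, Fcgr1 (-0.354) and Fcgr3 (-0.141) turned negative in the second comparison. Over the other classes and all comparisons 34 calls were made, and 67 with no filter on low counts, a fit whose adjusted p for Fcgr2b in astrocyte-like cells reached 1.18e-90 and which is not relied on. In the transgene comparisons of these classes, the share of all genes called higher ran from 0.106% (mural-like cells) to 17.7% (astrocyte-like cells). No share over the same classes, comparisons and settings is given, so these totals support nothing. In cells without a C1q UMI 14 calls were made. Of the 30 calls in the same classes, 13 had no value there because the gene did not pass the filter, and of the other 17, 14 were called and 3 were not (Fcgr3 in both comparisons and Fcrls in the first, in endothelial-like cells). Border-associated macrophage-like and neuron-like cells gave no value there, nor did the former at resolution 0.5. The causes were not tested. Of the values of the 7 genes in microglia-like cells and of the calls in other classes, 81 missed the threshold under an alternative, 7 newly passed it, all of Fcgr1 and Fcgrt in microglia-like cells, and 2 that were called under either setting turned direction; values called under neither that changed sign, as Fcgr2b did with library totals, are not counted in the 2, nor are genes newly called in other classes in the 7. With a replicate block, 4 and 4 Fc receptor genes were called, Fcgr1 joining in the first comparison (0.44, adjusted p = 0.047 by edgeR). The share of all genes called with the block is not given, so these counts support nothing. Whether the replicate numbers mark pairs is not known. Correlations of same-numbered libraries ran from -0.32 to 0.55. For Clec7a-KO with SOD1G93A/Clec7a-KO, replicates 1 to 4, they were 0.55, 0.34, -0.30 and 0.48. Libraries with different numbers were not compared, so a pairing was not tested.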
